A study of Rattus norvegicus with 6 samples.

Results

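Transcripts of the cholesterol synthesis pathway were examined in the medial prefrontal cortex of male Sprague-Dawley rats 90 min after 1 intraperitoneal dose of lysergic acid diethylamide (LSD, 1.0 mg/kg as the tartrate) or of saline. LSD is a hallucinogen that acts mainly through the serotonin 2A receptor. The genes were chosen as 8 named members of the pathway, and every probe set that the platform annotation assigns to exactly 1 of them was used. Hmgcs1 had no such probe set and was dropped. The remaining 7 genes, Idi1, Fdps, Fdft1, Sqle, Cyp51, Dhcr7 and Insig1, were read by 19 of the 8740 probe sets tested. The 3 LSD arrays and 3 saline arrays are Affymetrix rat genome arrays, which read a transcript with sets of short probes. The labels give 4 rats per treatment with their tissue pooled before extraction, whereas the study counts each array as its own pool of paired animals, and these accounts cannot both hold. The p-values therefore reflect array-to-array spread alone, possibly of technical origin. The second line of each sample description names the opposite treatment from the title and the treatment label. Groups were taken from the titles and treatment labels. If the second lines were right instead, every difference below would have the opposite sign.

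Cells make cholesterol from acetyl-CoA through mevalonate. Idi1 isomerises the isoprenoid unit, Fdps joins such units into farnesyl pyrophosphate, and Fdft1 (squalene synthase) condenses farnesyl pyrophosphate to squalene. Sqle oxidises squalene, Cyp51 removes a methyl group from the first sterol, and Dhcr7 carries out a final reduction to cholesterol. Insig1 is not an enzyme. It holds the sterol sensor Scap in the endoplasmic reticulum, which keeps the transcription factors called SREBPs inactive while sterols are plentiful, and it is itself an SREBP target. The brain makes nearly all of its own cholesterol, because lipoproteins of the blood do not cross the blood-brain barrier, and in the adult astrocytes and oligodendrocytes are the main producers.

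None of the 19 probe sets passed the threshold. Of these, 13 were nominally higher (68.4%, against 51.4% of all probe sets) and 6 nominally lower after LSD, and 0 had an adjusted p below 0.05 in limma, with adjusted p-values from 0.981 to 0.998. Over all probe sets 6 passed, which is 0.0686% of those tested. The median log2 change of the 19 was 0.021, beside 0.0045 for all probe sets tested. With the probe set of highest mean standing for each gene, the median of the 7 genes was 0.0024, beside 0.0056 for 4736 genes, and 4 were nominally higher and 3 lower. In 15 of the 19 the group means differed by less than the larger of the group SDs. For these brightest probe sets the 95% intervals of all 7 genes excluded a 1.5-fold change between the array groups, in either direction on the RMA scale. If the arrays of a group share a pool, the intervals cannot exclude such a change between treated and untreated rats. The widest bounds were a 1.38-fold higher level for Idi1 and a 1.39-fold lower level for Cyp51, whose brightest probe set can match several transcripts. The intervals of 3 other member probe sets did not exclude a 1.5-fold change between the array groups. That of Idi1 rc_AI045395_at reached 1.81-fold higher, that of Cyp51 AB004096_at 1.59-fold lower, and that of Cyp51 rc_AI230255_at ran from 0.36-fold to 1.67-fold. Fold changes of dim probe sets are compressed on this scale, and 4 of the 19 lay below the median level of all probe sets. These were both Idi1 probe sets, Fdps rc_AI180442_at and Fdft1 rc_H33426_g_at. The brightest of Idi1, AF003835_at, was thus itself dim (percentile 31.8 of all probe sets), so its interval may understate the bounds in transcript level.

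**Figure D1:**
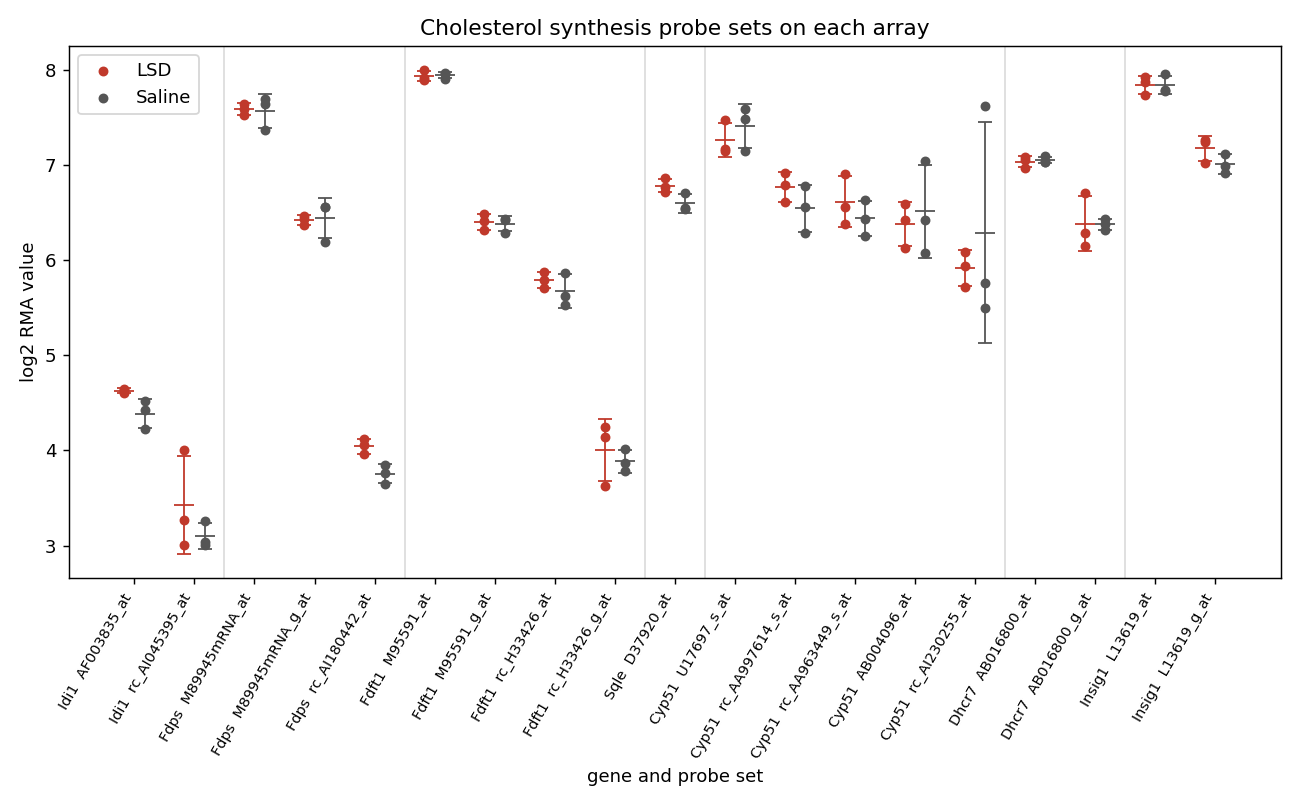
Each of 19 probe sets of 7 cholesterol synthesis genes is placed along the horizontal axis, with its log2 RMA value on every array on the vertical axis (LSD red, saline grey). Lines show group means with SD (n = 3 each). Most groups overlap, and the Cyp51 probe set rc_AI230255_at has 1 saline array at 7.62.

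The LSD arrays lay above all saline arrays in 3 probe sets, 1 each of Idi1, Fdps and Sqle, and below them in 0. This is 15.8% of the members, against 10.4% of all probe sets without overlap in either direction and 6.58% with LSD higher. An unadjusted limma p below 0.05 was found for 2 of the 19, against 3.92% of all probe sets. With 3 arrays against 3, an exact permutation test cannot give a two-sided p below 0.1, and these 3 probe sets gave that value. Those of Idi1 and Fdps lay below the median level of all probe sets.

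**Figure D2:**
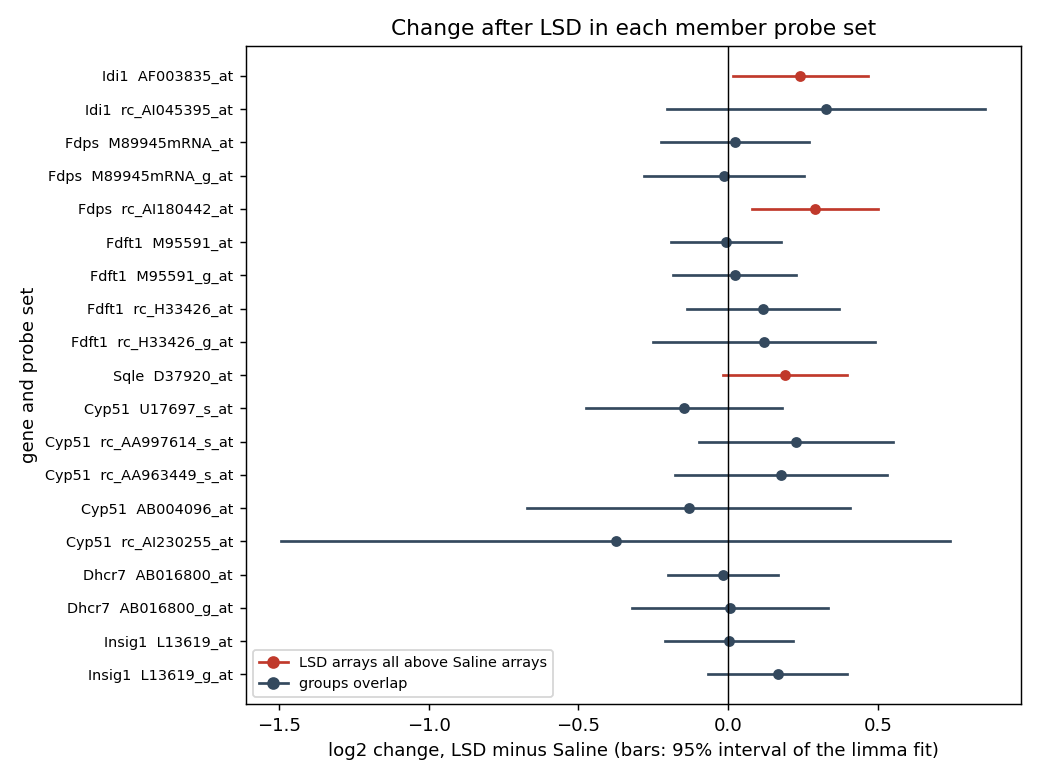
Log2 change, LSD minus saline (horizontal axis), of each probe set, drawn as a point on its 95% interval from the limma fit (n = 3 arrays per group). The red points are the 3 probe sets of Idi1, Fdps and Sqle whose groups did not overlap, at 0.24, 0.29 and 0.19, and the widest interval is that of Cyp51 rc_AI230255_at.

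SREBPs act on promoters together with the factor NF-Y, whose binding box reads CCAAT. RefSeq promoters of the GRCr8 assembly, 250 bases before to 50 bases after the start of transcription, were matched for 5 of the 7 genes. The letters of a sterol regulatory element, TCACNCCAC, were searched on both strands and found in 0 of the 5, against 1.12% of 33469 rat promoters. The letters CCAAT, on either strand, were found in 3 of the 5 (Idi1, Fdps and Insig1), against 37.5% of all. The window before the start overlapped the annotated gene for Insig1 and lay outside it for the other 4. These matches are letters in a window and no measure of binding. With so low a share over all promoters, 0 of the 5 cannot set the members apart from other genes. Sterol regulatory elements of other letters were not searched, so these genes are not shown to lack one. The 250 bases before the start are given for Idi1 (chr17:66547525-66547774, minus strand) and Fdps (chr2:176804817-176805066, minus strand), which each had 1 probe set without overlap, and for Dhcr7 (chr1:208444184-208444433, plus strand), which had none. Insig1 held the letters CCAAT too, though its groups overlapped in both probe sets. Sqle, whose groups did not overlap, had no promoter to search. A link between these letters and the LSD values was not tested. Capitals mark CCAAT or its reverse complement ATTGG. In Idi1 they begin at positions -66 and -35 from the start, in Fdps at -130 and -85.
Idi1: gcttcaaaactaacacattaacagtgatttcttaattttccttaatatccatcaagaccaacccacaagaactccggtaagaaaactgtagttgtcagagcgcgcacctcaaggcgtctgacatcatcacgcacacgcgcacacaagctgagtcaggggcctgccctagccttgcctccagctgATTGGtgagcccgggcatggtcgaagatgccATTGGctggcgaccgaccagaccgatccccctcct
Fdps: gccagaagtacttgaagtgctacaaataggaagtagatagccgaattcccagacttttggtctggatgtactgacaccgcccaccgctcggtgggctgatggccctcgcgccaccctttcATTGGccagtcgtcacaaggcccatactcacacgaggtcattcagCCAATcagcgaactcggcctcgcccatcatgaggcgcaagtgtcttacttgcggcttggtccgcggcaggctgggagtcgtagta
Dhcr7: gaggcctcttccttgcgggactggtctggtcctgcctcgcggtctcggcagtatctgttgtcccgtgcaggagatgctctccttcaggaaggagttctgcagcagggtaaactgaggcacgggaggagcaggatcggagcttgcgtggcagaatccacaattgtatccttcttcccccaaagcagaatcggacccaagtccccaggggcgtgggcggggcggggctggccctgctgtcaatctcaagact

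The groups separated in 1 of the 2 Idi1 probe sets. The brighter, AF003835_at, read 4.63, 4.60 and 4.65 log2 units on the LSD arrays, against 4.22, 4.42 and 4.52 on the saline arrays. The LSD values lay close together and above all saline values, of which Saline 1 was the lowest. The means were 4.63 ± 0.024 after LSD and 4.39 ± 0.15 after saline (SD, n = 3 each), a log2 change of 0.24 ± 0.098 (SE) or 1.18-fold (limma adjusted p = 0.981). The second Idi1 probe set, rc_AI045395_at, read 4.01, 3.01 and 3.27 after LSD and 3.01, 3.26 and 3.04 after saline. LSD 1 stood apart, LSD 3 lay just above Saline 2 and LSD 2 was the lowest of all arrays, and the log2 change of 0.33 became 0.036 without LSD 1.

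Fdps, which makes the farnesyl pyrophosphate used for sterols and for protein prenylation, differed between its probe sets. The brightest, M89945mRNA_at, read 7.53, 7.60 and 7.65 after LSD and 7.37, 7.70 and 7.65 after saline, a log2 change of 0.021 ± 0.11 (SE). The probe set M89945mRNA_g_at, from the same sequence, differed by -0.014 ± 0.12. In both the lowest array was Saline 1. Without it the groups still overlapped in M89945mRNA_at, while in M89945mRNA_g_at the other saline arrays, at 6.56 and 6.57, lay above the LSD arrays, at 6.44, 6.37 and 6.47. The dim probe set rc_AI180442_at read 4.05, 4.12 and 3.96 after LSD, against 3.85, 3.77 and 3.65 after saline. Here every LSD array was above every saline array, with a log2 change of 0.29 ± 0.091 (SE), 1.22-fold (limma adjusted p = 0.981). This probe set had the lowest unadjusted p of the 19.

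Fdft1, at the step that commits farnesyl pyrophosphate to sterols, had the member probe set of narrowest range. This probe set, M95591_at, read 8.0004, 7.89 and 7.92 after LSD and 7.91, 7.97 and 7.96 after saline. All 6 values lay within 0.11 log2 units and the groups overlapped, with a log2 change of -0.0075 ± 0.079 (SE) and a 95% interval from 0.88-fold to 1.13-fold. The other 3 Fdft1 probe sets differed by 0.021, 0.12 and 0.12, and their groups overlapped too.

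Sqle, the squalene epoxidase, is a rate-limiting enzyme of the sterol steps and was read by a single probe set. D37920_at read 6.87, 6.72 and 6.77 after LSD, against 6.54, 6.55 and 6.71 after saline. The groups did not overlap, although LSD 2 lay only just above Saline 3. The means were 6.79 ± 0.072 and 6.60 ± 0.098 (SD, n = 3 each) for LSD and saline, a log2 change of 0.19 ± 0.090 (SE) or 1.14-fold (limma adjusted p = 0.981). The 95% interval ran from 0.99-fold to 1.32-fold.

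Cyp51, the lanosterol demethylase, was read by 5 probe sets that did not move alike, 2 being nominally higher and 3 nominally lower. Of these, 3 have names ending in _s_at, which can match several transcripts, so their signal cannot be assigned to Cyp51 with certainty. The brightest, U17697_s_at, read 7.47, 7.15 and 7.18 after LSD and 7.15, 7.60 and 7.49 after saline (log2 change -0.15 ± 0.14, SE). The probe sets rc_AA997614_s_at and rc_AA963449_s_at differed by 0.23 ± 0.14 and 0.18 ± 0.15 (SE). The groups overlapped in all 5. The order of the arrays was shared by 4 of them, with LSD 1 the highest and LSD 3 the lowest of the LSD arrays, and Saline 1 the highest and Saline 3 the lowest of the saline arrays. U17697_s_at was the exception.

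The largest single departure among the members was in Cyp51 on Saline 1. The probe set rc_AI230255_at read 6.09, 5.94 and 5.72 after LSD and 7.62, 5.76 and 5.50 after saline. Saline 1 was 1.82 log2 units above the mean of the other 5 arrays. The log2 change of -0.38 ± 0.48 (SE) turned to 0.29 without that array. AB004096_at showed a smaller departure, with 6.60, 6.42 and 6.13 after LSD and 7.05, 6.42 and 6.08 after saline, and its log2 change of -0.13 turned to 0.13 without Saline 1. In U17697_s_at the same array differed by -0.23 log2 units from the mean of the other 5. Among all probe sets, 78 on Saline 1 lay further than 1 log2 unit from their mean over the remaining arrays, and 71 of these were higher. The corresponding numbers were 2 to 21 for the other 5 arrays. Whether this array bears on the Cyp51 values beyond what leaving it out shows was not tested.

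**Figure D3:**
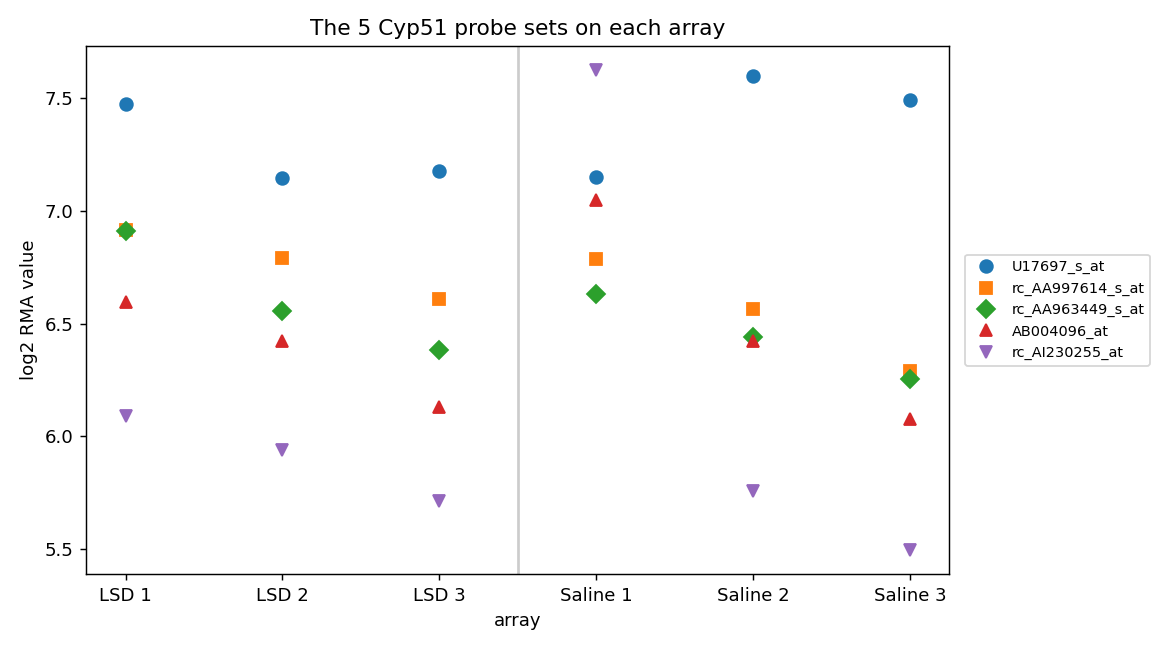
Log2 RMA values (vertical axis) of the 5 Cyp51 probe sets on each of the 3 LSD and 3 saline arrays (horizontal axis), with 1 symbol per probe set. On Saline 1 rc_AI230255_at reads 7.62 and AB004096_at 7.05, above their values on the other 5 arrays, while U17697_s_at reads 7.15.

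Dhcr7, which makes cholesterol from its immediate precursor, was nearly level. AB016800_at read 7.09, 7.06 and 6.97 after LSD and 7.04, 7.10 and 7.03 after saline, a log2 change of -0.018 ± 0.080 (SE). The groups overlapped, and the 95% interval ran from 0.87-fold to 1.12-fold. In AB016800_g_at, LSD 1 stood apart at 6.71, beside 6.29 and 6.15 on the other LSD arrays and 6.39, 6.43 and 6.31 after saline. The log2 change was 0.0056, and -0.16 without LSD 1.

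Insig1, the brake on SREBP processing, was likewise close to level in its brighter probe set. L13619_at read 7.88, 7.92 and 7.74 after LSD and 7.96, 7.78 and 7.80 after saline, a log2 change of 0.0024 ± 0.093 (SE), with a 95% interval from 0.86-fold to 1.16-fold. L13619_g_at, from the same sequence, read 7.26, 7.24 and 7.03 after LSD and 7.12, 6.99 and 6.92 after saline. Its log2 change was 0.17 ± 0.10 (SE, limma adjusted p = 0.981), and the groups overlapped through LSD 3 and Saline 1.

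Looked at by array, LSD 1 was often the high one. It was the highest of the 6 in 10 of the 19 probe sets and the lowest in 0. Saline 3 was the lowest in 7 and Saline 1 in 5. Without LSD 1 the median log2 change of the 19 was -0.00028, and without LSD 3 it was 0.12. Probe sets of 1 gene are not independent of each other. Of the 6 genes with several, the probe sets had a common sign in 2, Idi1 and Insig1. The mean profile of the 7 genes, each centred on its own mean, was 0.072, -0.0022 and -0.011 on the LSD arrays and -0.11, 0.023 and 0.029 on the saline arrays. Among 2684 other genes above the median level, those whose profile over the 6 arrays was closest to it were Sstr3, a somatostatin receptor gene, Acp2, which encodes a lysosomal acid phosphatase, and Nalcn, a sodium leak channel gene. Their root mean square differences from it were 0.016, 0.017 and 0.020 log2 units. Their own groups overlapped, as did those of the profile they were picked to match, so this overlap is no separate result. Shared regulation was not tested.

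The remainder of the pathway showed the same absence of calls. Of 82 further genes listed for sterol and lipid metabolism, 46 had a probe set with 1 symbol. Nominally, LSD was above saline in 28 and below it in 18, and the median change was 0.030 log2 units. By the brightest probe set none passed after adjustment over all probe sets, against 0.0211% of all genes. An unadjusted limma p below 0.05 was found for 0 of them, against 3.21%. Of 39 further probe sets of these genes, 0 passed the threshold. Among these, Scd2 AF036761_at, S75730_at and M15114_g_at had unadjusted limma p-values of 0.00024, 0.00046 and 0.014. The groups did not overlap in 3 of the 46 (6.52%, against 10.3% of all genes). By the brightest probe set, the 95% intervals of 45 of the 46 excluded a 1.5-fold change between the array groups in either direction. Among further probe sets, the interval of Scd2 AF036761_at lay wholly above a 1.5-fold rise, from 1.54-fold to 2.56-fold. Those of Scd2 S75730_at, Lipa S81497_s_at, Scp2 M58287_s_at and Me1 rc_AI171506_g_at did not exclude a 1.5-fold change either. Srebf2, Scap, Insig2, Cyp46a1 and Abca1 were not analysed here.

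In the list of mevalonate and isoprenoid genes, 5 of 7 were nominally higher and 2 lower (median 0.042). Acat1, an acetyl-CoA thiolase, read 7.60, 7.69 and 7.72 after LSD, against 7.85, 7.81 and 7.79 after saline. It differed by -0.14 ± 0.080 (SE, adjusted p = 0.981 in limma). Its groups did not overlap. Of the further Acat1 probe sets, D00512_at stood at -0.21, again without overlap, and D13921_s_at at -0.063 with overlap. Acat2, another acetyl-CoA thiolase of the list, differed by -0.035 with overlap. Fntb, a farnesyltransferase subunit, differed by 0.14, and Mvd, the mevalonate pyrophosphate decarboxylase, by 0.044.

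In the list of further sterol step genes all 6 measured were nominally higher by their brightest probe sets, with a median of 0.092 and a range from 0.023 to 0.18. The members that act in these steps did not share one sign, with Sqle at 0.19, Cyp51 at -0.15 and Dhcr7 at -0.018. Ebp, a sterol isomerase, read 4.89, 4.96 and 5.10 after LSD, against 4.88, 4.82 and 4.71 after saline. Its groups did not overlap, LSD 1 lying just above Saline 1, and its log2 change was 0.18 ± 0.093 (SE, adjusted p = 0.981 in limma). Nsdhl, which takes part in sterol demethylation, differed by 0.088, and Lss, the lanosterol synthase that follows Sqle, by 0.10. Other Lss probe sets differed by -0.023 and 0.15, and a second probe set of Msmo1, a sterol demethylation enzyme whose brightest stood at 0.023, by -0.14. Over all genes 51.7% were nominally higher. Ebp, Nsdhl, Hsd17b7 and Lbr of this list lay below the median level of all probe sets. The list median was 0.061 without dim probe sets and ran from 0.040 to 0.12 with 1 array left out.

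Regulators were thinly covered. Of 3 measured genes of SREBP control, Srebf1, which encodes SREBP-1, differed by -0.065 ± 0.087 (SE), Mbtps2, a protease that releases SREBPs, by -0.17 ± 0.10, and Pgrmc1, an Insig-binding membrane protein, by 0.068 ± 0.11, and all overlapped between groups. Uptake and transport genes had 6 of 13 higher, with a median of -0.024. Apod, a lipid-carrying apolipoprotein, read 8.14, 8.15 and 8.25 after LSD, against 8.12, 7.94 and 7.87 after saline. Its groups did not overlap, with a log2 change of 0.20 ± 0.094 (SE, adjusted p = 0.981 in limma). Lrp2, an endocytic receptor, differed by 0.20 and Lipa, the lysosomal acid lipase, by -0.14. Apoe, the main lipid carrier secreted by astrocytes, differed by -0.024 ± 0.13 (SE).

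Genes of storage, oxysterols and turnover had 6 of 8 higher, with a median of 0.024. Cyp11a1, which cleaves the cholesterol side chain in steroid synthesis, differed by 0.26 ± 0.14 (SE), Nr1h2, a nuclear receptor for oxysterols, by 0.13 and Cyp7b1, an oxysterol hydroxylase, by -0.092. Fatty acid synthesis genes had 4 of 9 higher, with a median of -0.052. Acaca, the acetyl-CoA carboxylase, differed by -0.35 ± 0.23 (SE), with Saline 1 at 5.53 beside 4.43 to 4.74 on all other arrays. Acly, which supplies cytosolic acetyl-CoA, differed by 0.13 and Scd, a stearoyl-CoA desaturase, by -0.21. By the brightest probe set the groups overlapped in every gene of these last lists, while 3 further probe sets, all of Scd2, did not overlap.

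**Figure D4:**
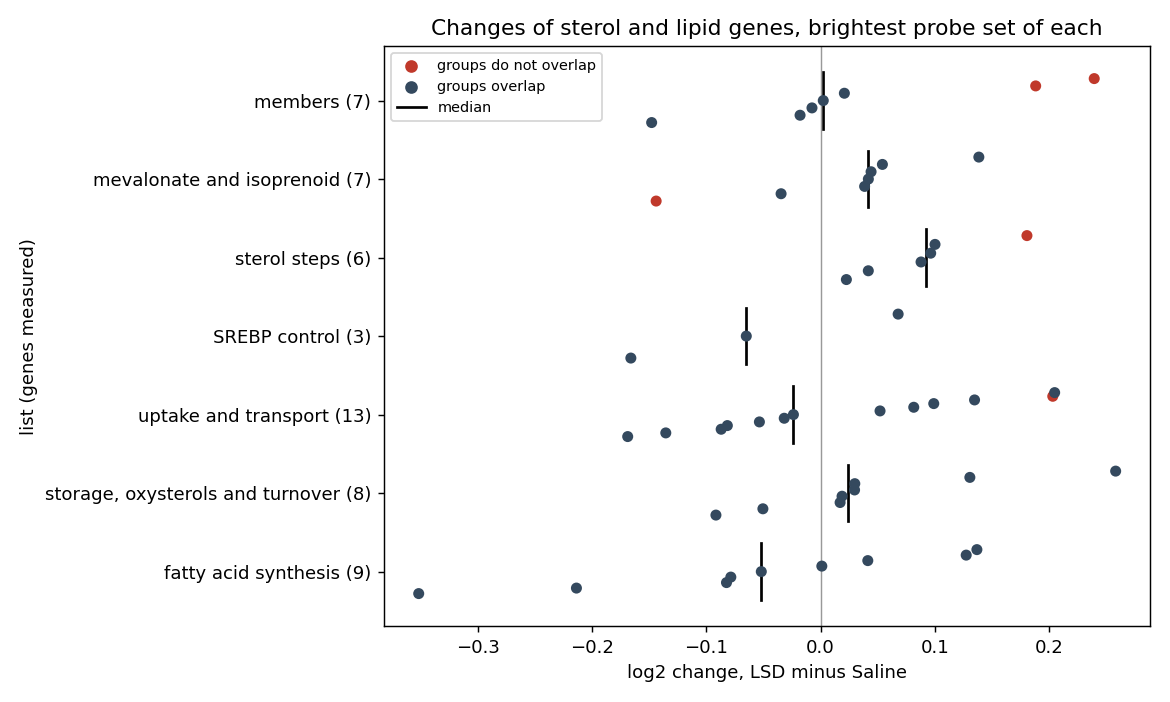
Log2 change, LSD minus saline (horizontal axis), of the 7 members and of 46 further sterol and lipid genes by list (vertical axis), 1 point per gene by its brightest probe set, with a black bar for the median of each list. Red points mark genes whose groups did not overlap, which are Idi1, Sqle, Acat1, Ebp and Apod.

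Cell type markers were read beside the members, since in dissected tissue fewer cells of a type and less RNA per cell cannot be told apart. Oligodendrocyte markers, 7 of 9 measured, averaged 8.53 to 8.58 log2 units on the LSD arrays and 8.43 to 8.56 on the saline arrays, and none separated the groups. Astrocyte markers, 6 of 7 measured, averaged 7.71 to 7.72 after LSD and 7.65 to 7.80 after saline. Their average hid differences of both signs, since the groups did not overlap in 2 of the 6, Aqp4 at 0.41 and Slc1a3 at -0.25, and S100b stood at -0.24 with overlap. Neuron markers, 5 of 7 measured, averaged 7.71 to 7.74 after LSD and 7.61 to 7.69 after saline, without overlap. Here too the signs were mixed, with Syt1 (0.33), Nefl (0.22) and Snap25 (0.13) without overlap and Gad1 (-0.20) and Slc17a7 (-0.16) with overlap. Markers of striatum, 6 of 7 measured, averaged 5.69 to 5.79 after LSD and 5.93 to 5.96 after saline, and the choroid plexus markers Ttr and Enpp2 8.08 to 8.37 and 8.58 to 8.75, both without overlap. For beta-actin, the 3′ probe set less the 5′ one, a sign of RNA integrity, gave 0.71, 0.71 and 0.64 log2 units after LSD and 0.83, 0.75 and 0.78 after saline. The same difference for GAPDH was 0.58, 0.40 and 0.49 after LSD and 0.56, 0.54 and 0.47 after saline, with overlap. The part of these differences in the values of Idi1, Fdps and Sqle was not tested.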

How the data were processed

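The authors deposited log2 values from RMA (affy package), in which background is corrected, arrays are quantile normalized and the probes of a set are summarised. The package version is not given in the sources used here. Quantile normalization hides a change shared by most transcripts. There is no sequencing depth, detection calls were not part of the values, and 6 arrays limit the precision. Of 8799 rows, 59 control probe sets were left out and 8740 tested. In the platform annotation 7006 had 1 gene symbol, 308 several and 1426 none. No probe set with several symbols named a member. Differences between LSD and saline were fitted by limma (version 3.58.1, R version 4.3.3) using lmFit followed by eBayes without covariates. Tests were two-sided, p-values were adjusted over all tested probe sets by the Benjamini-Hochberg method, and 0.05 was the threshold. Limma was used as a usual test for log2 array values. The rank sum test of Wilcoxon, which the methods give for group means in general, cannot give an exact two-sided p below 0.1 with 3 arrays against 3, and was added as an alternative after seeing the data. The procedure was also run on simulated data with independent arrays, an outcome that is not reported here and not used as support. SE and 95% intervals come from the limma fit to the deposited values. The brightest probe set, that of highest mean over the 6 arrays, stood for a gene in lists. No list was tested as a set.

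Every probe set of a member is described. From the wider lists, up to 3 genes of lowest p per list and Srebf1, Lss and Apoe are named, with the 3 genes of most similar profile. Further genes are named where other probe sets differed, for their low level or for comparison. Members and lists were chosen with earlier results of these data known. As alternatives, arrays were rescaled, weighted or left out in turn, dim probe sets were dropped, the variance model was changed, replicate numbers entered as a block, and a gene's probe set was picked differently. Promoter sequences were taken from RefSeq (GRCr8). The arrays name no genome build, so that assembly served for names and promoters only.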

Additional observations from a re-analysis of the deposited data

How the results depend on the processing

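No member passed the threshold under any alternative run, and the lowest adjusted p was 0.0791, for Fdps rc_AI180442_at with array weights. The number of all probe sets past the threshold was 6 as reported, 16 with dim probe sets left out and 20 with an intensity trend and robust prior. It was 42 with array weights, 0 with the replicate number as a block (replicate block) and 0 to 3 with 1 array left out. With the exact Wilcoxon rank sum test, chosen after seeing the data, it was 0. The lowest possible p of that test, 0.1, is reached where groups do not overlap. That held for 3 of the 19 member probe sets (15.8%), against 10.4% of all probe sets. Same-numbered arrays did not pair, with correlations of their deviations of -0.018, -0.23 and 0.17, and the block changed no member's call. The median of the 7 genes moved to 0.084 with probe sets averaged per gene and 0.17 with the most variable one, and that of the 46 further genes to -0.024 without dim probe sets. Of 243 member values under alternatives, 29 changed sign, in 10 of the 19 probe sets. With a second quantile normalization Insig1 L13619_at was -0.0071 and Fdft1 M95591_at 0.00037. With cyclic loess Dhcr7 AB016800_g_at was -0.0080 and Insig1 L13619_at -0.0061. With array weights Cyp51 AB004096_at was 0.13, Cyp51 rc_AI230255_at 0.18, Dhcr7 AB016800_g_at -0.057 and Fdps M89945mRNA_at -0.040. With 1 array left out, the ranges that crossed 0 were -0.35 to 0.13 (Cyp51 AB004096_at), -0.77 to 0.29 (Cyp51 rc_AI230255_at), -0.042 to 0.015 (Dhcr7 AB016800_at), -0.16 to 0.12 (Dhcr7 AB016800_g_at), -0.038 to 0.015 (Fdft1 M95591_at), -0.025 to 0.066 (Fdft1 M95591_g_at), -0.00028 to 0.30 (Fdft1 rc_H33426_g_at), -0.081 to 0.084 (Fdps M89945mRNA_at), -0.14 to 0.048 (Fdps M89945mRNA_g_at) and -0.035 to 0.058 (Insig1 L13619_at). The 3 probe sets without overlap kept their sign in every alternative that held them. Their log2 changes were 0.14 to 0.31 for Idi1, 0.24 to 0.38 for Fdps and 0.096 to 0.24 for Sqle. Leaving out 1 array could not change these signs, as every LSD value lay above every saline value. The changed variance model and the block left the log2 changes as they were. The Idi1 and Fdps probe sets were absent where dim ones were dropped. Causes of the shifts under the alternatives were not tested.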

Other observations

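Scd2, which encodes a stearoyl-CoA desaturase abundant in brain, was read by 6 probe sets that disagreed, and it was picked out after its values were seen. The brightest, which stands for the gene above, differed by -0.079 log2 units. AF036761_at read 7.93, 8.18 and 8.14 log2 units after LSD, against 6.73, 7.24 and 7.32 after saline, a log2 change of 0.99 ± 0.16 (SE) or 1.99-fold (adjusted p = 0.165 in limma). S75730_at read 7.50, 7.51 and 7.44 after LSD, against 7.10, 6.99 and 7.0036 after saline, a log2 change of 0.46 ± 0.080 (SE, adjusted p = 0.235 in limma). In M15114_g_at the groups separated the other way, with 9.52, 9.45 and 9.38 after LSD and 9.61, 9.88 and 9.80 after saline, a log2 change of -0.31 ± 0.098 (SE, adjusted p = 0.981 in limma). None of the 6 passed the threshold.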
